A study of Mus musculus with 15 samples.

Results

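The 48 G2 and mitosis genes described here make the proteins that carry a cell from the G2 phase through mitosis to cytokinesis. They were chosen by name, as a list of known members of 8 functional groups, and every array probe that carries the current or an older symbol of a member was taken. All 48 had at least 1 probe, 80 probes in all, and 69 probes passed the detection filter, so that all 48 genes stood among 18710 gene names tested. Each of the 48 was well above background on 15 of 15 arrays. The list holds the mitotic cyclins and kinases and proteins of the kinetochore, the spindle and the midbody.

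Mouse embryonic fibroblasts, the cells that grow out of minced embryos, were compared in 4 genotypes on the strain background that the labels spell C57B6: wild type (n = 4 arrays), p27 knock-out (n = 4), stathmin knock-out (n = 4) and double knock-out of p27 and stathmin (n = 3). All cultures came from embryos of 13.5 days and stood at passage 3, and RNA was taken at high confluence once the cells had been without serum for 24 h. p27, the product of Cdkn1b, inhibits cyclin-dependent kinases, and stathmin, the product of Stmn1, destabilises microtubules. Per the labels, same-genotype arrays are biological replicates. From which embryos or litters they came is not said, nor how the alleles were made. Each array set the sample, in the red dye, against a pool of fibroblast RNA in the green dye. Every value below is a log2 ratio of sample over that pool, and every difference is one between mean log2 ratios. In bulk RNA of this kind, fewer cells in G2 or mitosis and less of a transcript per cell cannot be told apart.

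Transcripts of mitotic genes are made late in the cell cycle. In resting cells the DREAM complex, which holds the pocket proteins p107 or p130 with E2F4 and the MuvB core, keeps these genes off. In dividing cells MuvB joins B-Myb and FoxM1 and the same genes are switched on. Many of their promoters carry the cell cycle genes homology region, an element that MuvB reads, and CCAAT boxes, which the factor NF-Y binds. Serum starvation and contact at high density are the classical ways of bringing fibroblasts to rest.

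Promoter sequence was available from the RefSeq table (GRCm38.p6) for 41 of the 48 genes, as windows of 300 bases that begin 250 bases before a transcript start. Foxm1, Kif20a, Ccna2, Tpx2, Cdc25c, Incenp and Aurkb had no entry. The letters TTTGAA, the core of the homology element, occurred on either strand in the windows of 29 of the 41 genes (70.7%), against 20.2% of 27025 genes with a window. Within 50 bases of the start they occurred in 26 of 41 (63.4%), against 5.72% of all genes. TTCGAA, a variant of the same core, was found in 3 of 41 (1.80% of all genes), and CCAAT in 30 of 41 (73.2%, against 41.1%). Of 3 E2F-type motifs, also searched on both strands, TTTCGCG was found in 1 of the 41 (0.970% of all genes). The motif TTTGGCG was found in 1 (1.77% of all genes), and the motif TTTCCCG in 3 (3.92% of all genes). A match to letters is not a bound site, and no binding was measured.

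The windows of 6 members that recur below are printed from 250 bases before the start to 30 bases from it on, to show where the elements lie. They are 5 genes with TTTGAA and Ccnb1, the main mitotic cyclin gene, whose window holds CCAAT boxes but no TTTGAA. They lie in GRCm38.p6 at chr9:70421525-70421804 on the reverse strand (Ccnb2), chr4:118437314-118437593 on the reverse strand (Cdc20), chr5:30666636-30666915 on the forward strand (Cenpa), chr19:37376132-37376411 on the forward strand (Kif11), chr7:80294201-80294480 on the forward strand (Prc1) and chr13:100786457-100786736 on the reverse strand (Ccnb1). Each runs 5′ to 3′ along the gene in lower case, and the capitals mark TTTGAA and CCAAT, or their reverse complements.
Ccnb2: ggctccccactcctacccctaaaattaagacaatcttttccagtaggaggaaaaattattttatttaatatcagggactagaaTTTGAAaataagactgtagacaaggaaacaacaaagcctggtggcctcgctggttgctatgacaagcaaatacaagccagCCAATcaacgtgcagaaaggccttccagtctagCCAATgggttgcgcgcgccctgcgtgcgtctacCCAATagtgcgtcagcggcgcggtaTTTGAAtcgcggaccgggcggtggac
Cdc20: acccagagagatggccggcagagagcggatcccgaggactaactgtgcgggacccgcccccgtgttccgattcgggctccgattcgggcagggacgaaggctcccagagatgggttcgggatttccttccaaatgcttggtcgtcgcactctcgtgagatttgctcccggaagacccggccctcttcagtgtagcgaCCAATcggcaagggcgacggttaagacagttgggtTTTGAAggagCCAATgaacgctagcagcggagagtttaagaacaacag
Cenpa: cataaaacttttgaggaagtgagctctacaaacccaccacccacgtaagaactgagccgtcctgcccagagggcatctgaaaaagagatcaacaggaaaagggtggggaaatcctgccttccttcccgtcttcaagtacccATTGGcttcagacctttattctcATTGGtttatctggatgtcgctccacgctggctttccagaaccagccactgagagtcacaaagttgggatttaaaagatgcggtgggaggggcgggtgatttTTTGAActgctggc
Kif11: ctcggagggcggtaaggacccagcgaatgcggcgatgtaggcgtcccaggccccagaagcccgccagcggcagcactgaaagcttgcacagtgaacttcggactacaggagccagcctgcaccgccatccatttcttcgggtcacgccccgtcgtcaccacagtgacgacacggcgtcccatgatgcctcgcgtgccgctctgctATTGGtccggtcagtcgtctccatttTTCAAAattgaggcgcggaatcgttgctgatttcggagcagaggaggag
Prc1: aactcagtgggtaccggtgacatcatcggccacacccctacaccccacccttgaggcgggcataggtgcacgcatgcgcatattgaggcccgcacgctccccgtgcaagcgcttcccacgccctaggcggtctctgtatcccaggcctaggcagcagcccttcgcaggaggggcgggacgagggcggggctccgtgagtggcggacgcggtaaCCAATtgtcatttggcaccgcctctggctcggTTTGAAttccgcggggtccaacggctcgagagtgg
Ccnb1: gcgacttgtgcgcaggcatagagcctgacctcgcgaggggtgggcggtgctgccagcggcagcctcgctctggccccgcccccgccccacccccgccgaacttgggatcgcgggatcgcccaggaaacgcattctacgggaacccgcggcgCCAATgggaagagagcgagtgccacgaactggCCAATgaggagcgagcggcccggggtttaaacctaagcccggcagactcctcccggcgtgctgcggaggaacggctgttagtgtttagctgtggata
Counted from the start, TTTGAA in Cdc20 begins at -18, with CCAAT boxes at -53 and -8. In Prc1 it begins at -5, with the box at -37, and Kif11 has both on the other strand, at -19 and -45. Ccnb2 has copies at -167 and 4, with 3 boxes at -87, -54 and -21. Cenpa has its copy at 16 and its boxes, on the other strand, at -109 and -86. The boxes of Ccnb1 lie at -99 and -67.

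Arrays of 1 genotype differed widely in the level of the 48 genes. Averaged over the 48, the log2 ratio was 0.58, 0.15, -0.05 and -0.01 on the wild type arrays, -0.39, -0.85, 0.73 and 0.51 on the p27 knock-out arrays, -0.04, -1.43, -0.02 and -0.59 on the stathmin knock-out arrays and 0.18, 0.00022 and 0.16 on the double knock-out arrays, in the order of the replicate numbers. The p27 knock-out arrays thus held both high and low values, array 2 of stathmin knock-out was the lowest of the 15, and the wild type and double knock-out arrays lay inside the range of the p27 knock-out. The mean was 0.17 ± 0.29 (SD) over the 4 wild type arrays and -0.00098 ± 0.75 over the 4 labelled p27 knock-out. It was -0.52 ± 0.66 over the 4 labelled stathmin knock-out and 0.11 ± 0.10 over the 3 labelled double knock-out. Pooled over the genotypes, the SD between arrays of 1 genotype was 0.54.

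**Figure D1:**
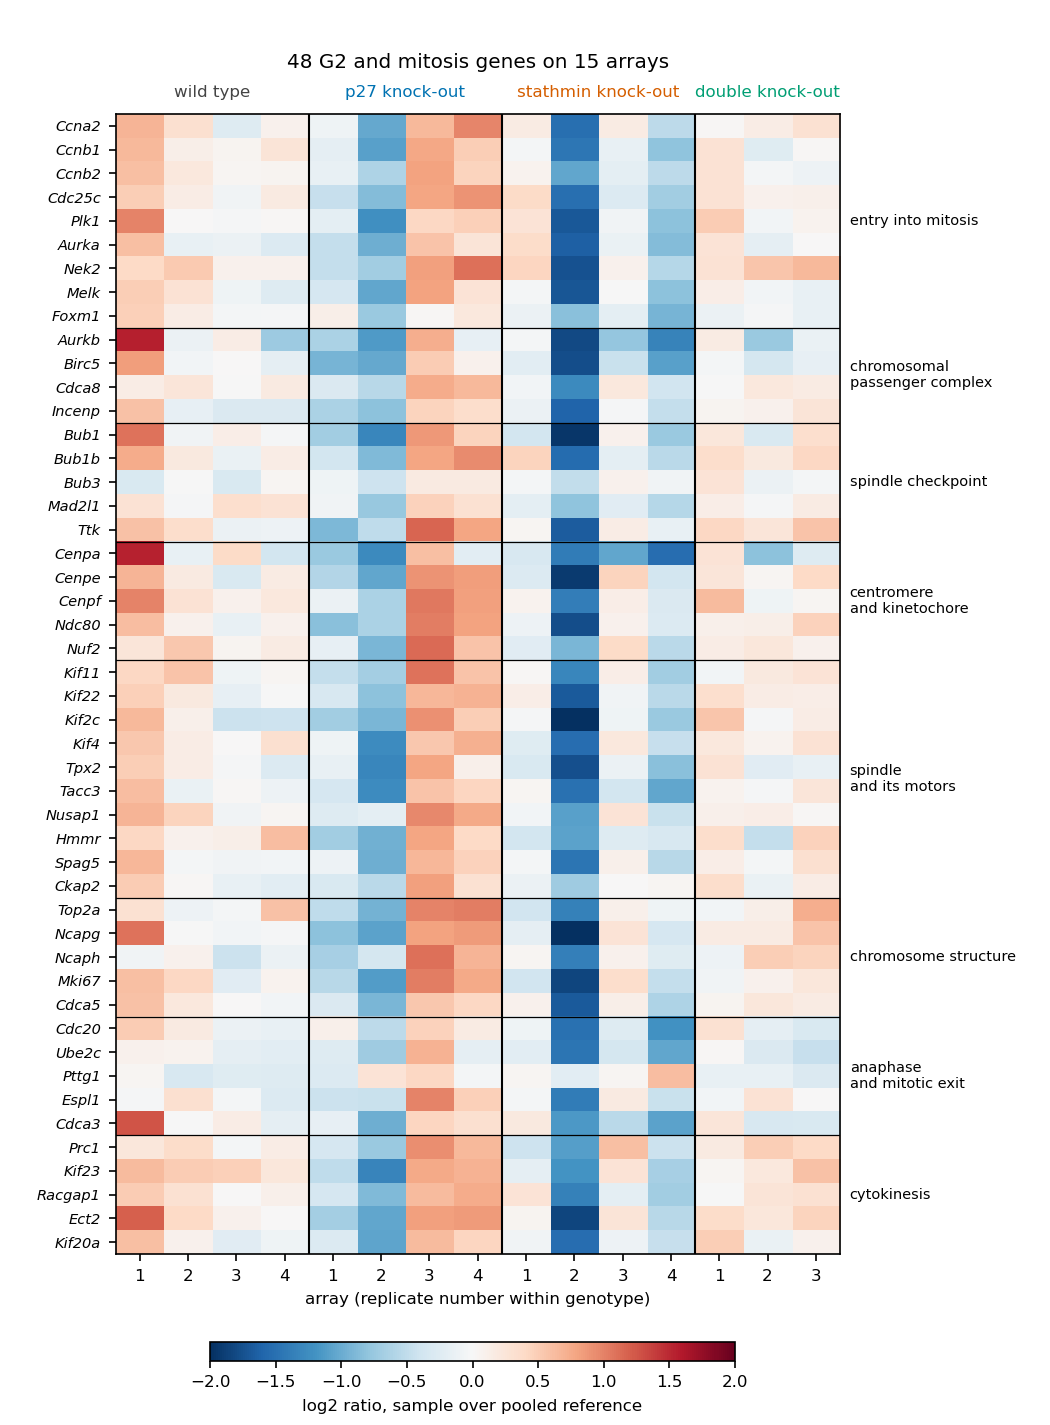
Log2 ratio of sample over pooled reference (colour, limits -2 to 2) for each of the 48 genes (rows, by function) on each of the 15 arrays (columns, by genotype and replicate). Array 2 of stathmin knock-out is the lowest for 44 of the 48 genes, and p27 knock-out 3 the highest for 24.

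For 44 of the 48 genes, stathmin knock-out 2 was the lowest of all 15 arrays. The other lowest values lay on stathmin knock-out 4 (2 genes), wild type 2 (1 gene) and p27 knock-out 2 (1 gene). The highest value lay on p27 knock-out 3 for 24 genes, on wild type 1 for 14 and on p27 knock-out 4 for 8. After the genotype means were taken out, pairs of members correlated across the 15 arrays with a median r of 0.86, and 1127 of 1128 pairs were above 0. Without stathmin knock-out 2 the median r was 0.82, and without the 3 arrays of its slide 0.77. These coefficients describe arrays that share a reference pool and a normalization. Pttg1, which makes securin, the inhibitor of separase, stood apart with a median r of 0.25, followed by Cenpa (0.66), Bub3 (0.70) and Foxm1 (0.71). Within a genotype the SD of a member had a median of 0.60, against 0.32 over all 18710 genes, and 46 of the 48 lay above that median of all genes.

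Relative to its mean over the arrays, the member signal ran from -1.41 to 0.79 on the log2 scale in the sample channel and from -0.05 to 0.08 in the reference channel. The arrays came on 4 slides, each slide holding 1 array of every genotype, except that slide 2 had no double knock-out. Each genotype had its fixed place on the slide, which cannot be told apart from the genotype. Stathmin knock-out 2 and p27 knock-out 2, the lowest and second lowest arrays, both came from slide 2, whose wild type array read 0.15. These arrays, with stathmin knock-out 1 and double knock-out 1, also had high Xist and low Y-linked transcripts. On wild type 1 both signals were present. The part of these differences in the member values was not tested. Wild type 3 and 4 correlated at 0.84 over all genes, above every other pair of 1 genotype (-0.22 to 0.58).

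As a check of the labels, the dimmer tested Stmn1 probe read 0.64 to 0.87 in wild type, 0.41 to 1.49 in p27 knock-out, -2.98 to -2.64 in stathmin knock-out and -2.82 to -2.68 in double knock-out, while the brighter one overlapped between genotypes. The tested Cdkn1b probe read -0.22 to 0.93 in wild type and -1.10 to 0.05 in p27 knock-out, and thus overlapped. It read -0.46 to 0.34 in stathmin knock-out and 0.19, -1.36 and -1.09 in double knock-out, whose array 1 thus lay above 3 of the 4 wild type arrays. By this probe the loss of p27 could not be checked. Another Cdkn1b probe, which did not pass the detection filter, read 0.22 to 0.36 in wild type and -0.20 to -0.10 in p27 knock-out. It read -0.18 to -0.08 in double knock-out and -0.13 to 0.53 in stathmin knock-out, whose array 4 lay among the p27 knock-out values. A further untested Cdkn1b probe overlapped between genotypes. Where the alleles lie relative to these probes is not given. All 14 fibroblast markers were well above background on every array. Their mean was 1.25 on stathmin knock-out 2 and 1.17 on p27 knock-out 2, the highest of the 15, where the mitotic genes were lowest. It ran from -0.22 to 0.33 in wild type, 0.38 to 1.17 in p27 knock-out, 0.16 to 1.25 in stathmin knock-out and -0.19 to 0.27 in double knock-out. Macrophage and blood markers, 15 to 20 of 20 of them above background, had a mean of -1.63 to -0.50 in wild type, -2.61 to 1.60 in p27 knock-out, -1.75 to -0.95 in stathmin knock-out and -2.28 to 1.29 in double knock-out. The highest of the 15 arrays was p27 knock-out 2 and the lowest p27 knock-out 3, while stathmin knock-out 2 read -0.95. Epithelial markers averaged 0.05 to 0.55 in wild type, -1.33 to -0.0047 in p27 knock-out, -1.0 to -0.24 in stathmin knock-out and -0.74 to -0.16 in double knock-out, with Cdh1, Epcam and Cldn4 too dim to be tested. Endothelial, neural and muscle markers, of which 5 of 8, 9 of 11 and 6 of 9 were tested, averaged between -1.05 and 0.35, -0.56 and 0.17, and -1.13 and 0.56 over the 15 arrays. The part of these markers in the mitotic values was not tested.

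Of the 9 genes that drive entry into mitosis, Ccnb1 (chr13:100778739-100786486, GRCm38.p6, as for the other genes), the cyclin B1 that activates Cdk1, read 0.64, 0.11, 0.05 and 0.26 on the wild type arrays, -0.19, -1.09, 0.78 and 0.49 on the p27 knock-out arrays, -0.04, -1.45, -0.14 and -0.81 on the stathmin knock-out arrays and 0.30, -0.25 and 0.03 on the double knock-out arrays. Every stathmin knock-out array thus lay below every wild type array, while the p27 knock-out arrays lay on both sides of them. The stathmin knock-out differed from wild type by -0.88 (SE 0.38, limma adjusted p = 0.907), which did not pass. Foxm1 (chr6:128362994-128375886), the transcription factor that switches on many of the other members, read 0.47, 0.15, -0.03 and -0.03 on the wild type arrays, 0.11, -0.75, 0.02 and 0.22 on the p27 knock-out arrays, -0.12, -0.84, -0.19 and -0.93 on the stathmin knock-out arrays and -0.11, -0.02 and -0.14 on the double knock-out arrays. It too was lower on all 4 stathmin knock-out arrays than on any wild type array, by -0.66 on average (SE 0.23, adjusted p = 0.907). Its range over the arrays was narrower than that of the cyclin.

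Ccnb2, the other B-type cyclin here, and Ccna2, the cyclin of S phase and G2, differed by -0.65 and -0.63 in stathmin knock-out, and Plk1, the polo kinase of centrosome and kinetochore, by -0.83. Aurka, the centrosomal Aurora kinase, differed by -0.58, Cdc25c, the phosphatase that frees Cdk1 of inhibitory phosphate, by -0.71, and the kinases Nek2 and Melk by -0.73 and -0.76. All 9 genes of the group were below 0 in this comparison, from -0.88 to -0.58, and all 9 were below 0 in p27 knock-out against wild type, from -0.38 to -0.08. In double knock-out against wild type 7 of 9 were below 0. Nek2, which separates centrosomes, gave the highest value of the 48 between double and stathmin knock-out, 0.95 (SE 0.49, limma adjusted p = 1.00). None of these passed.

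Within the chromosomal passenger complex, which corrects faulty attachments of chromosomes to the spindle, the kinase Aurkb (chr11:69045624-69051664) read 1.55, -0.11, 0.15 and -0.72 in wild type, -0.64, -1.13, 0.72 and -0.16 in p27 knock-out, -0.04, -1.80, -0.77 and -1.34 in stathmin knock-out and 0.17, -0.75 and -0.13 in double knock-out. Wild type 1 was the highest of the 15 arrays, and wild type 4 lay among the stathmin knock-out values. Aurkb differed by -1.2 in stathmin knock-out (SE 0.51, limma adjusted p = 0.907) and by -0.52 in p27 knock-out (SE 0.51, adjusted p = 0.837). Birc5 (chr11:117849237-117855743), which makes survivin, the subunit that brings the complex to centromeres, read 0.84, -0.06, 0.01 and -0.18 in wild type, -0.93, -1.03, 0.51 and 0.09 in p27 knock-out, -0.21, -1.77, -0.45 and -1.09 in stathmin knock-out and -0.04, -0.35 and -0.16 in double knock-out. Its 4 stathmin knock-out arrays lay below all of wild type, at a mean difference of -1.03 (SE 0.39, limma adjusted p = 0.907). Incenp, the scaffold, and Cdca8, which makes borealin, both differed by -0.51.

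The spindle checkpoint delays anaphase until all kinetochores are attached. Mad2l1 (chr6:66535221-66541107), which makes the Mad2 protein that inhibits Cdc20, read 0.29, -0.02, 0.33 and 0.29 in wild type, -0.07, -0.76, 0.46 and 0.31 in p27 knock-out, -0.20, -0.81, -0.23 and -0.57 in stathmin knock-out and 0.13, -0.02 and 0.16 in double knock-out. Wild type and stathmin knock-out did not overlap, nor did stathmin and double knock-out. It differed by -0.68 between stathmin knock-out and wild type (SE 0.23, limma adjusted p = 0.907) and by 0.54 between double and stathmin knock-out (SE 0.25, adjusted p = 1.00). Its interaction value, 0.78 (SE 0.34, adjusted p = 0.670), had the smallest p of the members there.

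Bub1b, the BubR1 component of the checkpoint, read 0.74, 0.20, -0.13 and 0.15 in wild type, -0.36, -0.89, 0.79 and 0.94 in p27 knock-out, 0.45, -1.54, -0.19 and -0.55 in stathmin knock-out and 0.35, 0.19 and 0.41 in double knock-out. Stathmin knock-out 1 lay above 3 of the 4 wild type arrays and stathmin knock-out 2 below every other array, and the stathmin difference of -0.70 had an SE of 0.44 (limma adjusted p = 0.907). The kinases Bub1 and Ttk differed by -1.02 and -0.58 in the same comparison. Bub3 (chr7:131560367-131571895), the partner of Bub1 that also works outside mitosis, varied little: it read -0.30, -0.01, -0.30 and 0.03 in wild type, -0.08, -0.41, 0.18 and 0.17 in p27 knock-out, -0.03, -0.49, 0.09 and -0.07 in stathmin knock-out and 0.27, -0.12 and -0.04 in double knock-out. Its SD within genotypes, 0.24, was the smallest of the 48.

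Cenpa (chr5:30666877-30674837), the histone H3 variant that marks centromeres, had the smallest p of all members in each of the 3 comparisons with wild type. It read 1.53, -0.14, 0.38 and -0.37 in wild type, -0.74, -1.27, 0.59 and -0.21 in p27 knock-out, -0.33, -1.39, -1.04 and -1.52 in stathmin knock-out and 0.28, -0.82 and -0.26 in double knock-out. Wild type 1 was the highest array and stathmin knock-out 4 the lowest, and wild type 4 lay below stathmin knock-out 1. The differences from wild type were -0.75 in p27 knock-out (SE 0.46, limma adjusted p = 0.796), -1.42 in stathmin knock-out (SE 0.46, adjusted p = 0.907) and -0.62 in double knock-out (SE 0.50, adjusted p = 1.00). The interaction value was 1.56 (SE 0.68, adjusted p = 0.671).

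Of the other centromere and kinetochore genes, Cenpe, the kinetochore motor, differed by -0.71 in stathmin knock-out against wild type and Cenpf by -0.76. Ndc80 and Nuf2, the pair that binds microtubule ends, differed by -0.68 and -0.58. All 5 genes of the group were below 0 both there and in p27 knock-out, and all 5 were above 0 in double against stathmin knock-out, from 0.47 to 0.80.

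The spindle is built of microtubules, whose tubulin stathmin binds. Of its 10 genes here, Kif11 (chr19:37376382-37421863), the Eg5 motor that pushes spindle poles apart, read 0.42, 0.57, -0.08 and 0.03 in wild type, -0.48, -0.68, 1.08 and 0.56 in p27 knock-out, 0.02, -1.30, 0.14 and -0.70 in stathmin knock-out and -0.06, 0.19 and 0.27 in double knock-out. Its highest array was p27 knock-out 3 and its lowest stathmin knock-out 2. The stathmin difference was -0.70 (SE 0.39, limma adjusted p = 0.907) and the p27 difference -0.11 (SE 0.39, adjusted p = 0.963). Kif2c, the kinesin that takes microtubules apart, read -2.0 on stathmin knock-out 2 and differed by 0.94 between double and stathmin knock-out (SE 0.51, adjusted p = 1.00).

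Tpx2, the activator of Aurora A, and Tacc3, a spindle stabiliser, differed by -0.83 and -0.81 in stathmin knock-out against wild type. Hmmr, a centrosomal spindle protein, was below wild type throughout, without overlap, with a difference of -0.81 (SE 0.36, limma adjusted p = 0.907). Kif4 and Kif22, motors on chromosome arms, differed by -0.76 and -0.67, Spag5 (astrin) by -0.61, Nusap1 by -0.60 and Ckap2 by -0.24. All 10 were below 0, and all 10 were above 0 between double and stathmin knock-out, from 0.31 to 0.94.

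Among the genes of chromosome structure, Top2a (chr11:98992947-99024199), the topoisomerase that untangles sister chromatids, read 0.31, -0.10, -0.04 and 0.59 in wild type, -0.50, -0.94, 0.99 and 1.02 in p27 knock-out, -0.38, -1.35, 0.10 and -0.09 in stathmin knock-out and -0.06, 0.11 and 0.72 in double knock-out. Mki67 (chr7:135689784-135716450), the Ki-67 antigen that coats mitotic chromosomes and marks proliferating cells, read 0.61, 0.41, -0.22 and 0.07 in wild type, -0.56, -1.12, 1.03 and 0.76 in p27 knock-out, -0.38, -1.83, 0.35 and -0.47 in stathmin knock-out and -0.06, 0.09 and 0.22 in double knock-out. In both, p27 knock-out 3 and 4 were the highest arrays and p27 knock-out 2 and stathmin knock-out 2 the lowest. Mki67 differed by -0.80 in stathmin knock-out (SE 0.49) and Top2a by -0.62 (SE 0.44, limma adjusted p = 0.907 for each). Ncapg, a condensin subunit, had the lowest single value of all members, -2.01 on stathmin knock-out 2. Ncaph, another condensin subunit, differed by 0.32 in p27 knock-out and by 0.41 in double knock-out (SE 0.39 and 0.42). Cdca5 (sororin, which protects cohesin) differed by -0.71 in stathmin knock-out.

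At anaphase, sister chromatids part. Cdc20 (chr4:118432901-118437343), the activator of the anaphase-promoting complex, read 0.51, 0.18, -0.11 and -0.14 in wild type, 0.10, -0.52, 0.46 and 0.16 in p27 knock-out, -0.09, -1.50, -0.26 and -1.21 in stathmin knock-out and 0.31, -0.18 and -0.31 in double knock-out. On stathmin knock-out 2 and 4 it was below every array of the other genotypes. The difference from wild type was -0.87 (SE 0.31, limma adjusted p = 0.907), and that of double from stathmin knock-out 0.70 (SE 0.34, adjusted p = 1.00). Ube2c, the ubiquitin-conjugating enzyme of the same complex, and Cdca3, a trigger of mitotic entry that the complex destroys, differed by -0.71 and -0.95 in stathmin knock-out.

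Pttg1 (chr11:43420244-43427463), read by 1 probe, went the other way. It read 0.04, -0.32, -0.25 and -0.25 in wild type, -0.27, 0.27, 0.42 and -0.04 in p27 knock-out, 0.05, -0.21, 0.03 and 0.62 in stathmin knock-out and -0.15, -0.14 and -0.28 in double knock-out. Its highest array was stathmin knock-out 4, on which the 48 genes averaged -0.59. It differed from wild type by 0.29 in p27 knock-out (SE 0.18, limma adjusted p = 0.796) and by 0.32 in stathmin knock-out, and between double and p27 knock-out by -0.28 (SE 0.20, adjusted p = 1.00). Its interaction value of -0.60 (SE 0.27, adjusted p = 0.671) was the only one of the 48 below 0. Espl1, which makes separase, the protease that securin holds back, differed by -0.42 in stathmin knock-out, and thus lay with the other members.

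For cytokinesis, Prc1 (chr7:80294445-80316259), which bundles the microtubules of the central spindle, read 0.23, 0.37, -0.04 and 0.15 in wild type, -0.34, -0.75, 0.92 and 0.65 in p27 knock-out, -0.42, -1.10, 0.61 and -0.43 in stathmin knock-out and 0.17, 0.49 and 0.41 in double knock-out. Stathmin knock-out 3 was above every wild type array and the other 3 below all of them. Prc1 differed by -0.51 in stathmin knock-out (SE 0.37, limma adjusted p = 0.907). Kif23 and Racgap1, which together form centralspindlin, differed by -0.90 and -0.72 there, Ect2, the exchange factor that starts the cleavage furrow, by -0.95, and the kinesin Kif20a by -0.64. By its other tested probe Ect2 differed by -0.28. Kif23 was also among the 5 members of smallest p when p27 knock-out was set against wild type (-0.56, SE 0.42, limma adjusted p = 0.805) and between double and p27 knock-out (0.37, SE 0.45, adjusted p = 1.00).

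**Figure D2:**
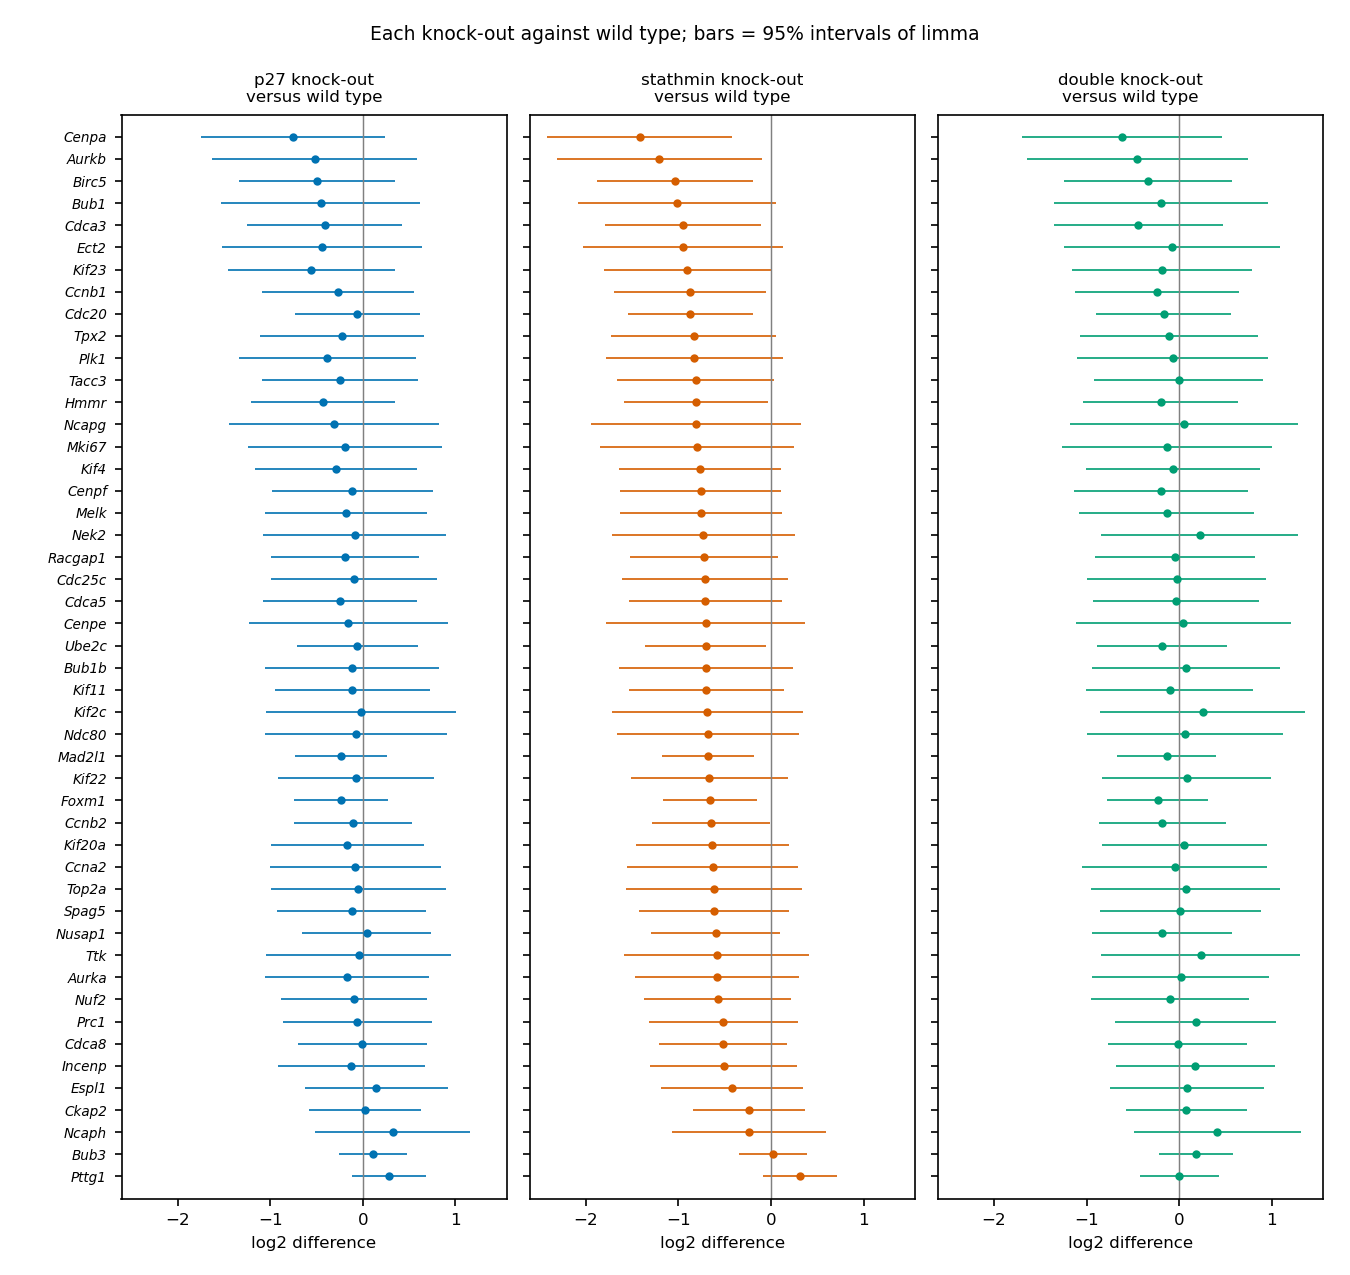
Log2 difference of each knock-out from wild type for the 48 genes (points, ordered by the stathmin knock-out), with 95% intervals from limma (bars). In stathmin knock-out 46 of 48 points lie below 0, against 42 in p27 knock-out and 29 in double knock-out, and no gene passed after adjustment over all genes.

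Loss of p27 alone was set against wild type first. The median over the 48 genes was -0.12, against 0.01 over all 18681 genes tested, and 42 of 48 were below 0 and 6 above, against 47.3% and 52.7% of all genes. With median centring of the arrays in place of loess the median was -0.07, against 0.08 over all genes, and 29 were below 0. By limma 0 of the 48 passed (0% of all genes), and 0 had an unadjusted p under 0.05, against 3.14% of all genes lower and 2.58% higher. No member kept its 4 p27 knock-out arrays apart from all wild type arrays, against 1.25% of all genes lower and 1.08% higher. The 5 members of smallest p were Cenpa, Pttg1, Kif23, Birc5 (-0.49, SE 0.39, adjusted p = 0.808) and Hmmr (-0.43, SE 0.36, adjusted p = 0.814). The direction depended on single arrays: the median was 0.16 without p27 knock-out 2, -0.01 without p27 knock-out 1, -0.39 without p27 knock-out 3 and -0.34 without p27 knock-out 4. It was -0.02 without wild type 1 and -0.22 without wild type 3. With array weights it was 0.24, with 7 genes below 0. Within slides 1 to 4 it was -0.88, -1.02, 0.76 and 0.51.

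Loss of stathmin alone gave the lowest median of the 3 comparisons with wild type, which share the wild type arrays. The median was -0.70, against 0.01 over all 18688 genes, and 46 of 48 were below 0 (48.1% of all genes), with Bub3 and Pttg1 above (51.9%). Bub3 lay at 0.02, and its further tested probes were below 0, down to -0.06. By function, the medians ran from -0.77 in the chromosomal passenger complex to -0.68 in the checkpoint, against -0.31 to -0.06 in p27 knock-out and -0.18 to 0.08 in double knock-out. None of the 48 passed by limma (0.00535% of all genes), while 12 had an unadjusted p under 0.05 and were lower (2.79% of all genes) and 0 were higher (1.97%). The 12 were Cenpa, Mad2l1, Foxm1, Cdc20, Birc5, Cdca3, Aurkb, Ube2c, Ccnb1, Hmmr, Ccnb2 and Kif23. In 5 of the 48, Mad2l1, Foxm1, Birc5, Ccnb1 and Hmmr, the groups did not overlap and stathmin knock-out was lower, against 1.63% of all genes, and in 0 was it higher (1.55%). The size depended on stathmin knock-out 2. Without it the median was -0.38, 45 genes were below 0 and 3 had an unadjusted p under 0.05 and were lower (2.68% of all genes in that fit). Their number was 4 without wild type 1 (1.84% of all genes) and 4 without stathmin knock-out 4 (1.34%). It was 21 without stathmin knock-out 1 (4.68%) and 23 without stathmin knock-out 3 (2.92%), and in each of these fits 0 passed. Within slides 1 to 4 the median was -0.64, -1.66, 0.11 and -0.59, so that slide 3 went the other way.

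**Figure D3:**
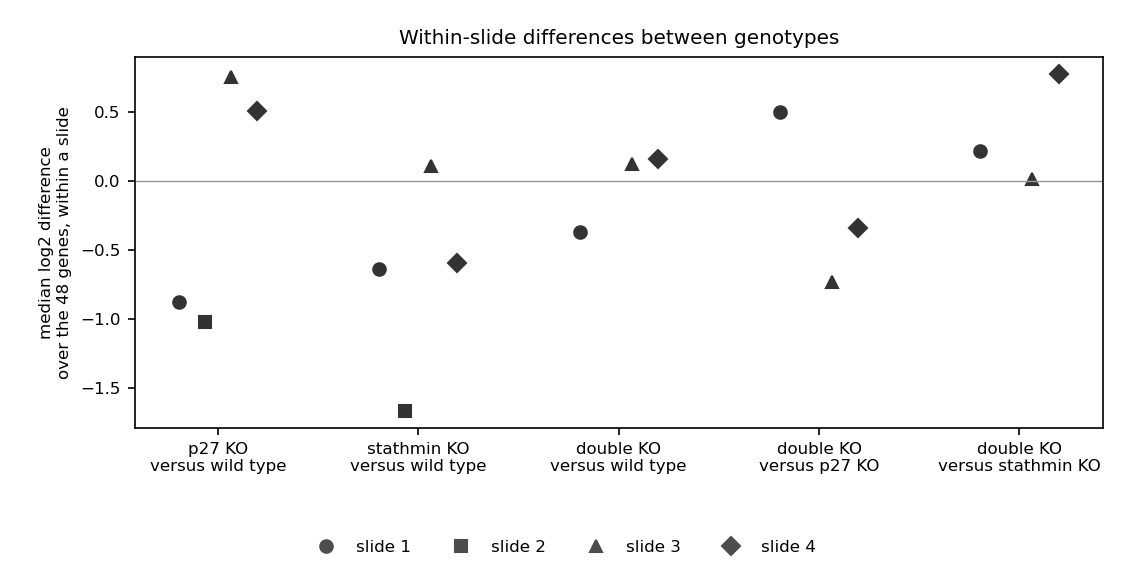
Median log2 difference over the 48 genes between 2 arrays of 1 slide (vertical axis) for 5 comparisons (horizontal axis), with a marker shape per slide. The p27 knock-out lies below wild type on slides 1 and 2 (-0.88 and -1.02) and above it on slides 3 and 4 (0.76 and 0.51), and slide 2 has no double knock-out.

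For double knock-out against wild type the median was -0.05, against -0.0034 over all 18688 genes. Of the 48, 29 were below 0 (50.7% of all genes) and 19 above (49.3%). Under median centring the median of the 48 was 0.10 with 15 below 0, but the median over all genes was then 0.09. The median of the 48 was 0.10 with 18 below 0 under array weights and -0.25 with 42 below 0 with slide as a block. By limma 0 passed (0% of all genes), 0 had an unadjusted p under 0.05 (1.25% of all genes lower and 1.08% higher) and 0 kept the groups apart (3.57% lower and 2.96% higher). The smallest p belonged to Cenpa, Cdca3 (-0.44, SE 0.42), Ncaph, Bub3 (0.18, SE 0.18) and Foxm1 (-0.23, SE 0.25), all at adjusted p = 1.00. Across its 3 tested probes Bub3 ran from -0.40 to 0.18. The 95% intervals of Ccnb1 and Mki67 ran from -1.13 to 0.65 and from -1.26 to 1.00, so that differences of up to about those sizes were within the error. The median was 0.08 without wild type 1, -0.12 without wild type 3, -0.09 without wild type 4, -0.01 without double knock-out 2 and -0.07 without double knock-out 3. Within slides 1, 3 and 4 it was -0.37, 0.12 and 0.16.

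Double knock-out was then set against each single knock-out, with the same 3 double knock-out arrays in both. Against p27 knock-out the median was 0.12 (-0.01 over all 18703 genes) and 38 of 48 were above 0 (47.7% of all genes) and 10 below (52.3%), with 0 passing (0%), 0 at an unadjusted p under 0.05 (1.47% lower and 1.53% higher) and 0 with the groups apart (1.79% lower and 1.43% higher). Besides Pttg1 and Kif23, the smallest p belonged to Incenp (0.30), Ect2 (0.36) and Plk1 (0.31). The other tested Ect2 probe gave -0.05. With slide as a block the median was -0.07 with 35 below 0, and with array weights -0.11 with 39 below 0. It was -0.16 without p27 knock-out 2, 0.0069 without p27 knock-out 1, 0.39 without p27 knock-out 3 and 0.31 without p27 knock-out 4. Within slides 1, 3 and 4 it was 0.50, -0.73 and -0.34.

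Against stathmin knock-out, 47 of 48 were above 0 (49.1% of all genes) and Pttg1 below (50.9%), with a median of 0.68 (-0.0049 over all 18710 genes). None passed (0%), Mad2l1 alone had an unadjusted p under 0.05 and was higher (1.68% of all genes, and 2.21% lower). In 6 members, Mad2l1, Kif2c, Kif22, Incenp, Ttk and Ndc80, the groups did not overlap and double knock-out was higher (2.3% of all genes, and 3.03% lower). The 5 of smallest p were Mad2l1, Cdc20, Nek2, Tacc3 (0.81, SE 0.42) and Kif2c. The median was 0.36 without stathmin knock-out 2, and within slides 1, 3 and 4 it was 0.22, 0.01 and 0.78.

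The interaction asked whether the losses of p27 and stathmin add up on the log2 scale. It was above 0 for 47 of 48 members (47.3% of all genes) and below 0 for Pttg1 (52.7%), with a median of 0.82 (-0.02 over all 18681 genes). By limma 0 passed (0%). Mad2l1 and Cenpa had an unadjusted p under 0.05 and were higher (3.8% of all genes) and Pttg1 had one and was lower (3.56%). Kif23 (1.27, SE 0.61) and Birc5 (1.18, SE 0.58) followed, both at limma adjusted p = 0.671. The interaction uses all 4 genotypes, and shares its arrays with the comparisons above. The median was 0.48 without stathmin knock-out 2, 0.54 without p27 knock-out 2 and 0.20 without slide 2, an alternative added after seeing the data. Within slides 1, 3 and 4, double differed from p27 knock-out by medians of 0.50, -0.73 and -0.34. Stathmin knock-out differed from wild type there by -0.64, 0.11 and -0.59. For the interaction, slide 3 thus went the other way from slides 1 and 4.

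The other genes of the pathway were taken from lists. Of 71 further mitosis genes tested, 66 were below 0 in stathmin knock-out against wild type (48.1% of all genes), with a median of -0.60, and 10 had an unadjusted p under 0.05 and were lower (2.79% of all genes). Cenpi, a centromere protein, differed by -0.999 (SE 0.30), Cit, the citron kinase of the midbody, by -0.90 (SE 0.31) and Spc24, a kinetochore subunit, by -0.80 (SE 0.28), each at limma adjusted p = 0.907. Of 43 DNA replication genes, which act in S phase, 42 were below 0, with a median of -0.41. Pola1, a subunit of polymerase alpha, differed by -0.79 (SE 0.31) and Rrm2, a ribonucleotide reductase subunit, by -0.72 (SE 0.32, adjusted p = 0.907 for each). Fibroblast markers had 11 of 14 members above 0 in the same comparison, among them Mmp2, a matrix protease, at 1.03 (SE 0.36) and Pdgfrb, the receptor of PDGF-BB, at 0.55 (SE 0.20, adjusted p = 0.907 for each). Vim, the intermediate filament vimentin, the third by p, differed the other way, by -0.41 (SE 0.21, limma adjusted p = 0.907). None of these lists had a member that passed.

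**Figure D4:**
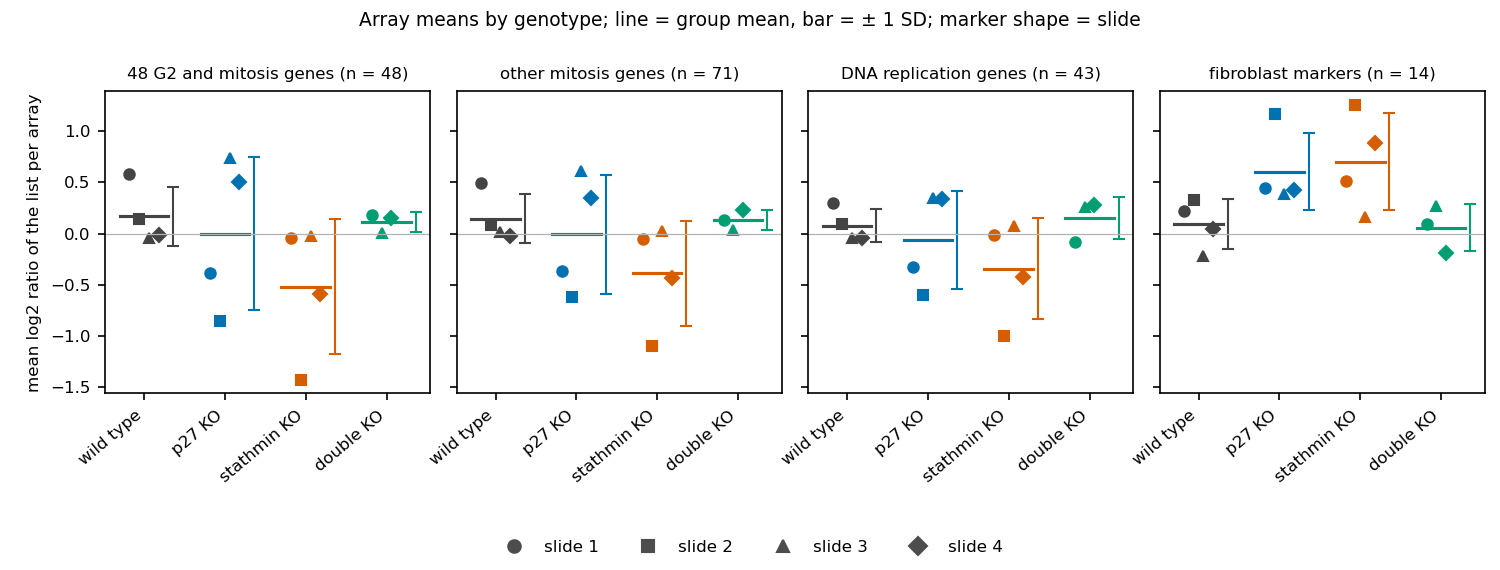
Mean log2 ratio per array (points, with a marker shape per slide) of the 48 genes, 71 other mitosis genes, 43 DNA replication genes and 14 fibroblast markers, by genotype. Lines are genotype means and bars 1 SD. The mitotic and replication lists are lowest on stathmin knock-out 2, at -1.43, -1.09 and -1.0, where the fibroblast markers are highest at 1.25.

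Over the 15 arrays the mean of the other mitosis genes ran from -1.09 to 0.61 and that of the replication genes from -1.0 to 0.35. For double knock-out 1 to 3 the replication genes averaged -0.09, 0.26 and 0.28, in another order than the 48. The mean over 15 genes of the DREAM, B-Myb and NF-Y complexes, the factors that control these promoters, varied less, from -0.26 to 0.31. Their median difference from wild type was -0.04 for p27 knock-out, -0.17 for stathmin knock-out and -0.01 for the double, with 0 passing. Single genes of this list went both ways, from -0.86 to 0.52, -1.09 to 0.58 and -0.83 to 0.66 in the same order. Lin9 and Lin54, subunits of the MuvB core, differed by -0.76 (SE 0.25) and -0.38 (SE 0.16) in stathmin knock-out, and Rbl2, the pocket protein p130 of resting cells, by 0.58 (SE 0.25), each at limma adjusted p = 0.907. Within the 48, the median difference in stathmin knock-out against wild type was -0.70 over the 29 genes with TTTGAA and -0.72 over the 12 without. Between double and stathmin knock-out it was 0.68 and 0.64. The 12 include Bub1, whose window holds the variant TTCGAA, so this split is by TTTGAA alone and not by the homology element. These counts hold only for the windows searched. The transcript start used lies 1482 bases from the annotated 5′ end of the gene for Pttg1 and 3852 bases for Kif2c. It lies 646 bases away for Cdca3, up to 399 for Ect2 and 316 for Aurka.

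Where a gene had more than 1 tested probe, which held for 18 of the 48, the further probes mostly shared the sign of the one used. In stathmin knock-out against wild type 19 of 21 further probes did, and in double against stathmin knock-out 20 of 21. In double knock-out against wild type, where the differences were near 0, 12 of 21 did. Bub3 was among the exceptions in each of these comparisons. For the interaction the 2 probes of Ect2 gave 0.23 and 1.31.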

How the data were processed

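RNA was amplified, labelled and hybridised to 15 whole mouse genome arrays, and the scanner files hold spot intensity in both channels, per the file headers from Feature Extraction 9.1.3.1. The deposited scanner files also hold a dye-normalised log10 ratio made by that software, and the authors' deposited value table fits a log2 ratio of sample over reference whose centring and normalization are not given in the sources used here. Those values served as alternatives only.

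Mean signals were background-corrected with normexp (offset 50) and normalised by loess within each array in limma 3.58.1 (R 4.3.3). Control and outlier spots were left out and spots of a probe averaged. Probes well above background in the sample channel on 3 arrays of a genotype were tested, 27700 of 41174. The brightest tested probe stood for a gene, and names were updated through RefSeq (GRCm38.p6). One model over 15 arrays with a mean per genotype left 11 residual degrees of freedom. Benjamini-Hochberg adjustment ran over all genes, with a threshold of 0.05. The method was tried on simulated data with independent noise for each gene and array. That setting lacks the correlation seen between members, so it says nothing about genes that move together. Nothing says that the arrays of a genotype came from separate embryos beyond the word replicate. Each p-value thus sets a difference against the spread between these arrays, pooled over the 4 genotypes. The SD of the member mean was 0.10 in double and 0.75 in p27 knock-out. The number of arrays limits the precision.

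Members and lists were chosen with earlier results of these data known. Every member was named, most of them with the difference in stathmin knock-out against wild type. In each comparison the 5 members of smallest p were named. Values per array were given for 10 fixed members and for some others. From other lists, at most 3 genes of smallest p were named. Same-numbered arrays of different genotypes correlated at -0.32 to 0.43 after genotype means were removed (21 pairs, 12 over 0.1), so the numbers were not taken to pair them.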

Additional observations from a re-analysis of the deposited data

Results flagged for a closer look

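Among 147 sets of 4 arrays of 1 genotype, 7 had an array whose gap to the nearest of the others was too large a part of the whole range by Dixon's test, and chance gives about 1 in 20. On wild type 1, Ncapg read 1.08 (the others -0.06 to -0.01), Plk1 0.98 (-0.02 to 0.02), Spag5 0.66 (-0.07 to -0.03) and Incenp 0.58 (-0.30 to -0.16). On stathmin knock-out 2, Ttk read -1.66 (the others -0.14 to 0.15) and Hmmr -1.07 (-0.37 to -0.25). On wild type 2, Mad2l1 read -0.018 (the others 0.29 to 0.33).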

How the results depend on the processing

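Under 32 alternatives (31 for the interaction) 0 of the 48 genes passed in any comparison, and the smallest adjusted p of a member was 0.130 to 0.853 by comparison. The median difference of p27 knock-out from wild type was -0.88, -1.02, 0.76 and 0.51 within slides 1 to 4, that of stathmin knock-out -1.66 and 0.11 within slides 2 and 3, and those of double from p27 and from stathmin knock-out -0.73 and 0.013 within slide 3. The interaction median was 0.20 without slide 2. Leaving out 1 array gave medians of -0.39 to 0.16 (p27 knock-out against wild type), -0.88 to -0.38 (stathmin), -0.12 to 0.08 (double), -0.16 to 0.39 (double against p27), 0.36 to 0.83 (double against stathmin) and 0.48 to 1.08 (interaction). With array weights the medians were 0.24, -0.47, 0.10, -0.11, 0.54 and 0.31 in the same order, which turned p27 and double knock-out against wild type and double against p27 knock-out. A replicate block gave medians of -0.12, -0.70, -0.0010, 0.15, 0.70 and 0.89 in the same order, with 17 members lower in stathmin knock-out at an unadjusted p under 0.05 (4.66% of all genes) and 0 called. A slide block gave -0.12, -0.70, -0.25, -0.07, 0.46 and 0.62, with 0 called, which turned double against p27 knock-out. The cause of these shifts was not tested. With 3 or 4 arrays a genotype and an SD of 0.54 between arrays, the number of arrays limits the precision. All 48 genes were well above background on every array.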
